A study of Homo sapiens with 4 samples.

Results

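Keratins are the intermediate filament proteins of epithelial cells. The probe sets considered were those annotated to a single symbol made of KRT and a number, without pseudogenes or keratin-associated proteins, and each gene was represented by its brightest probe set, the one with the highest mean log2 signal. This gave 44 keratin genes, measured by 56 probe sets, of the 19775 genes with a single symbol on the array. Of these, 23 are type I and 20 type II keratins, and KRT222 belongs to neither numbered series. KRT10-AS1, an antisense RNA gene whose symbol also begins in this way, is not a keratin and was left out. Other keratin genes, among them KRT6A, KRT17 and KRT81, were not analysed here.

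Keratin filaments are built from pairs of a type I and a type II protein, and each epithelium has characteristic partners. Simple epithelia such as the luminal layer of the breast use KRT8 with KRT18, often with KRT7 and KRT19, whereas basal and myoepithelial cells use KRT5 with KRT14. Because these patterns are kept in tumours, keratins serve as markers of luminal and basal breast cancer.

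The cells were SK-BR-3, a HER2-amplified human breast cancer line that carries the p53 R175H missense mutation in all groups. The 4 groups, with 1 array each, were p53 shRNA, Pontin siRNA with the control vector, p53 shRNA with Pontin siRNA, and control shRNA, which the labels also call an empty vector. Cells were selected with puromycin after the shRNA vector, given Pontin siRNA or left in an arm titled sicon, a term that the labels do not spell out, and collected 24 h after siRNA transfection. The labels do not say whether the selected cells were pools or clones, or whether each vector was selected once for both siRNA arms. The layout crosses p53 shRNA with Pontin siRNA. Pontin is an ATPase of chromatin complexes that is encoded by RUVBL1.

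No group had a replicate, so differences were judged by size in matched pairs that share no array. A limma fit that takes the pairs as replicates is given beside the counts. The first p53 pair set p53 shRNA against control shRNA, and the second set both knockdowns against Pontin siRNA. The first Pontin pair set Pontin siRNA against control shRNA, and the second set both knockdowns against p53 shRNA. Log2 ratios are given in that order throughout. A gene was called where both ratios reached 1.5-fold (0.58 in log2) in 1 direction. Calls were made among the 12066 genes kept, whose mean signal reached the median of all probe sets, 15.3. The 7744 genes at or above the 75th percentile, 110.3, are called bright. The arrays measure bulk RNA, in which fewer cells of a type and less RNA per cell cannot be told apart.

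The siRNA target RUVBL1 had a signal of 127 with Pontin siRNA and 478 with control shRNA. It was 65.8 with both knockdowns and 398 with p53 shRNA. The epithelial gene EPCAM had a mean signal of 5947 and ERBB2, which encodes HER2, 5087, while CDH1, the E-cadherin gene, was at 5.83. Of 5 fibroblast markers only COL1A1 (166) reached 110, and none of 3 endothelial, 2 immune and 4 myoepithelial markers measured did. Over all probe sets, the median signal was 19.6 on the array with both knockdowns and 15.9 to 16.5 on the others.

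SK-BR-3 expressed 8 keratins, taking a mean signal of 110 or more over the 4 arrays as expressed. With the mean over all probe sets of a gene there were 7, and without probe set types that can hybridize to several transcripts there were 3 (KRT19, KRT80 and KRT15). The 8 keratins expressed by their brightest probe set were KRT19, KRT18, KRT8, KRT7, KRT10, KRT4, KRT80 and KRT15, or 4 type I and 4 type II genes. Of the 7 simple epithelial keratins measured, 5 were expressed (KRT7, KRT8, KRT18, KRT19 and KRT80). The other expressed genes were 1 of 5 suprabasal epidermal keratins, 1 of 8 mucosal, corneal and related keratins, and 1 of 3 keratins of basal and stratified epithelium. None of 12 hair and nail keratins, 7 keratins of the inner root sheath and companion layer, or KRT16, which is linked to hyperproliferating epidermis, was expressed. The total of 8 and these class counts hold only for the keratins analysed. Members of the same classes without a single-symbol probe set, among them KRT6A, KRT17 and KRT81, are outside them. In all, 18.2% of the keratins reached 110, while 39.2% of all genes were bright.

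The level separated clearly at the threshold. The nearest genes above it were KRT15, with a mean signal of 236, and KRT80, with 618. The nearest below it were KRT24 at 67.9, KRT23 at 67.6 and KRT32 at 33.9. The same 8 genes had a signal of 110 or more on each of the 4 arrays, the lowest being 199.7. Signals of different probe sets depend on the probes, so they do not rank keratins by RNA abundance. No detection calls were used, so expressed means here only that the mean signal reached 110.

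Keratin genes lie in tandem clusters on chromosomes 12 and 17, and 6 of the 8 expressed genes were immediate neighbours of another expressed keratin. In the order of protein-coding genes in RefSeq (GRCh38.p14), KRT80 stands next to KRT7, KRT8 next to KRT18, and KRT15 next to KRT19. KRT4 and KRT10 stood beside keratins that were not expressed or not measured. Whether expressed keratins were neighbours more often than the layout of the clusters gives was not tested. Of the members, 5 of 21 on chromosome 12 and 3 of 23 on chromosome 17 were expressed.

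The 100 bases before the listed start of 4 genes are shown because they include the expressed genes with a promoter entry (KRT10, KRT4 and KRT8) and the member next below the threshold (KRT24). They are from RefSeq, build GRCh38.p14, minus strand, 5′ to 3′. Capitals mark TATAA on the gene's strand where it begins and ends between 50 and 11 bases before the start.
KRT10: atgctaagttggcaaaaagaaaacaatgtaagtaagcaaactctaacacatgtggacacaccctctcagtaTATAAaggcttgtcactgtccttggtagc
KRT4: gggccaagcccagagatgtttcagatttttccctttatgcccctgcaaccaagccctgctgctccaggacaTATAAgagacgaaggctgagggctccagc
KRT8: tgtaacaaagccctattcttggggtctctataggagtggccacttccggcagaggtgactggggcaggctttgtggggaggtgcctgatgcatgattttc
KRT24: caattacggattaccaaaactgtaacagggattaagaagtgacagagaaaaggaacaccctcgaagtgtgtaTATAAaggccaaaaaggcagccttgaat

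These windows lie at chr17:40822615-40822714 for KRT10, chr12:52814117-52814216 for KRT4, chr12:52926470-52926569 for KRT8 and chr17:40703753-40703852 for KRT24. The letters TATAA, the core of the TATA box that positions the start of transcription, began 29 bases before the start in KRT10 and KRT4 and 28 bases before it in KRT24. They were not found in this window of KRT8. Whether the listed starts are the ones used in these cells was not tested. Of the 29 keratin genes with a promoter entry, 18 held TATAA on the gene's strand in at least 1 entry. Counted by entry, 19 of 33 keratin windows held it (57.6%), against 4.46% of all 35116 windows. When both strands were searched, the shares were 57.6% and 5.62%. Tandem keratin genes share sequence through duplication and are not independent of each other. Genes with the letters were found on both sides of the expression threshold, as KRT10 and KRT24 show.

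KRT8 and KRT18, the type II and type I partners of simple epithelial filaments, had high signals in every group. KRT8 had a signal of 5702 with p53 shRNA, 5860 with Pontin siRNA, 6438 with both knockdowns and 5298 with control shRNA. KRT18 had 9240 with p53 shRNA, 9181 with Pontin siRNA, 10646 with both and 9087 with control shRNA. Both genes were highest with both knockdowns and lowest with control shRNA.

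KRT19, the small type I keratin that lacks most of the tail domain, had signals of 9836 with p53 shRNA, 9308 with Pontin siRNA, 11279 with both and 9351 with control shRNA. KRT7, the type II keratin of ducts and glands, had 4985 with p53 shRNA, 4822 with Pontin siRNA, 5028 with both and 4790 with control shRNA. KRT19 stood out only on the array with both knockdowns, and the 4 values of KRT7 lay close together.

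**Figure D1:**
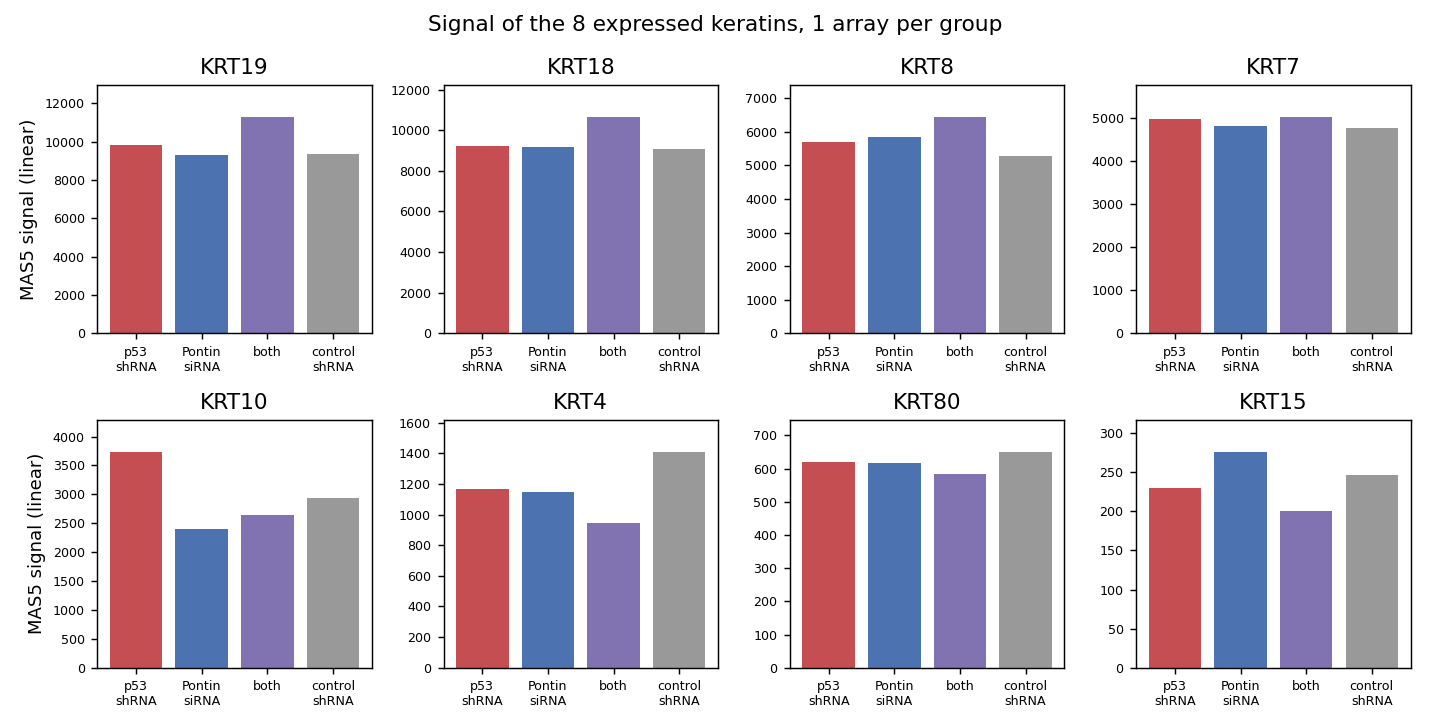
Each panel plots the linear MAS5 signal of 1 expressed keratin on the 4 arrays, 1 bar per array, with axes from 0. KRT19, KRT18 and KRT8 have their highest bars with both knockdowns, KRT4 has its lowest bar there (942) and its highest with control shRNA (1408), and KRT10 has its lowest bars in the groups with Pontin siRNA.

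Of the remaining expressed keratins, KRT10, KRT4 and KRT15 belong mainly to stratified epithelia, and KRT80 was counted above as simple epithelial. KRT10, which pairs with KRT1 above the basal layer of the epidermis, had signals of 3732 with p53 shRNA, 2397 with Pontin siRNA, 2641 with both and 2939 with control shRNA. KRT4, which pairs with KRT13 in mucosal epithelium, had 1167 with p53 shRNA, 1148 with Pontin siRNA, 942 with both and 1408 with control shRNA. The usual partners of these genes were dim on every array, KRT1 with signals from 3.4 to 14.7 and KRT13 from 13.6 to 17.6.

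KRT80, a type II keratin of differentiating epithelia, ranged narrowly, with signals of 621 with p53 shRNA, 617 with Pontin siRNA, 585 with both and 650 with control shRNA. KRT15, a type I keratin of basal cells, had 230 with p53 shRNA, 276 with Pontin siRNA, 199.7 with both and 246 with control shRNA. KRT5 and KRT14, the defining pair of basal cells, were not expressed, with mean signals of 21.4 and 3.32.

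With p53 shRNA, none of the 18 keratins kept was called, where 2.25% of all genes kept and 0.633% of bright genes were called in either direction. None was 1.5-fold apart with opposite signs, beside 0.887% of genes kept. In the additive limma fit, 3 of these 18 had an unadjusted p under 0.05, beside 11.5% of genes kept, and 0 keratins and 0 genes in all passed an adjusted p of 0.05. The 8 expressed keratins had pair ratios from -0.46 to 0.34, none of them reaching 1.5-fold in either pair. Their median mean ratio was 0.09, beside -0.01 over bright genes. It was 0.0087 after quantile normalization, -0.0398 after median centring, which moved bright genes to -0.14, and -0.0715 for the 3 keratins expressed without the cross-hybridizing types. The median size of a single pair ratio, regardless of sign, was 0.12 for these keratins and 0.12 for bright genes.

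Among the simple epithelial keratins, KRT19 (0.07 and 0.28), KRT18 (0.02 and 0.21) and KRT7 (0.06 and 0.06) had both arrays with p53 shRNA above both arrays without it. KRT15 (-0.10 and -0.46) had both below. Of the 3 on the higher side, KRT19 alone was still separated after quantile normalization, KRT19 and KRT7 after cyclic loess normalization and 0 after median centring, while KRT15 was separated under each. After quantile normalization the first pair of KRT18 was at -0.03 and the second of KRT7 at -0.02. Over bright genes, 17.1% stood entirely above and 20.5% entirely below in this way. KRT8 was at 0.11 and 0.14, KRT10 at 0.34 and 0.14, and KRT80 at -0.07 and -0.08, with overlapping groups.

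KRT4 had p53 ratios of -0.27 and -0.29, or 1.21-fold and 1.22-fold lower. Its groups overlapped, because the signal with p53 shRNA alone (1167) was above that with Pontin siRNA alone (1148).

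With Pontin siRNA, none of the 18 keratins kept was called, where 2.42% of all genes kept and 1.28% of bright genes were called. None was 1.5-fold apart with opposite signs, beside 0.862%. In the additive limma fit, 5 had an unadjusted p under 0.05, beside 14.4% of genes kept, and 0 keratins and 0 genes in all passed an adjusted p of 0.05. The expressed keratins had pair ratios from -0.50 to 0.20, again none reaching 1.5-fold in either pair. Their median mean ratio was -0.01, beside -0.00 over bright genes. The median size of a pair ratio was 0.17 for these keratins and 0.14 for bright genes.

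KRT10 (-0.29 and -0.50), KRT4 (-0.29 and -0.31) and KRT80 (-0.07 and -0.09) had both arrays with Pontin siRNA below both arrays without it. KRT8 (0.15 and 0.18) had both above. KRT10, KRT4 and KRT80 were separated under quantile, cyclic loess and median normalization too, and KRT8 under quantile and cyclic loess but not after median centring. The set of separated keratins changed with the scaling. KRT18 was also entirely above under quantile and cyclic loess normalization. After median centring KRT19, KRT18 and KRT7 were entirely below, which made 6 below and 0 above. Over bright genes, 25.5% stood entirely below and 22.5% entirely above. KRT18 was at 0.01 and 0.20, KRT7 at 0.01 and 0.01 (the second -0.04 after quantile normalization), KRT19 at -0.01 and 0.20, and KRT15 at 0.16 and -0.21. KRT15 thus lay on opposite sides of 0 in the pairs, with ratios under 1.5-fold.

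**Figure D2:**
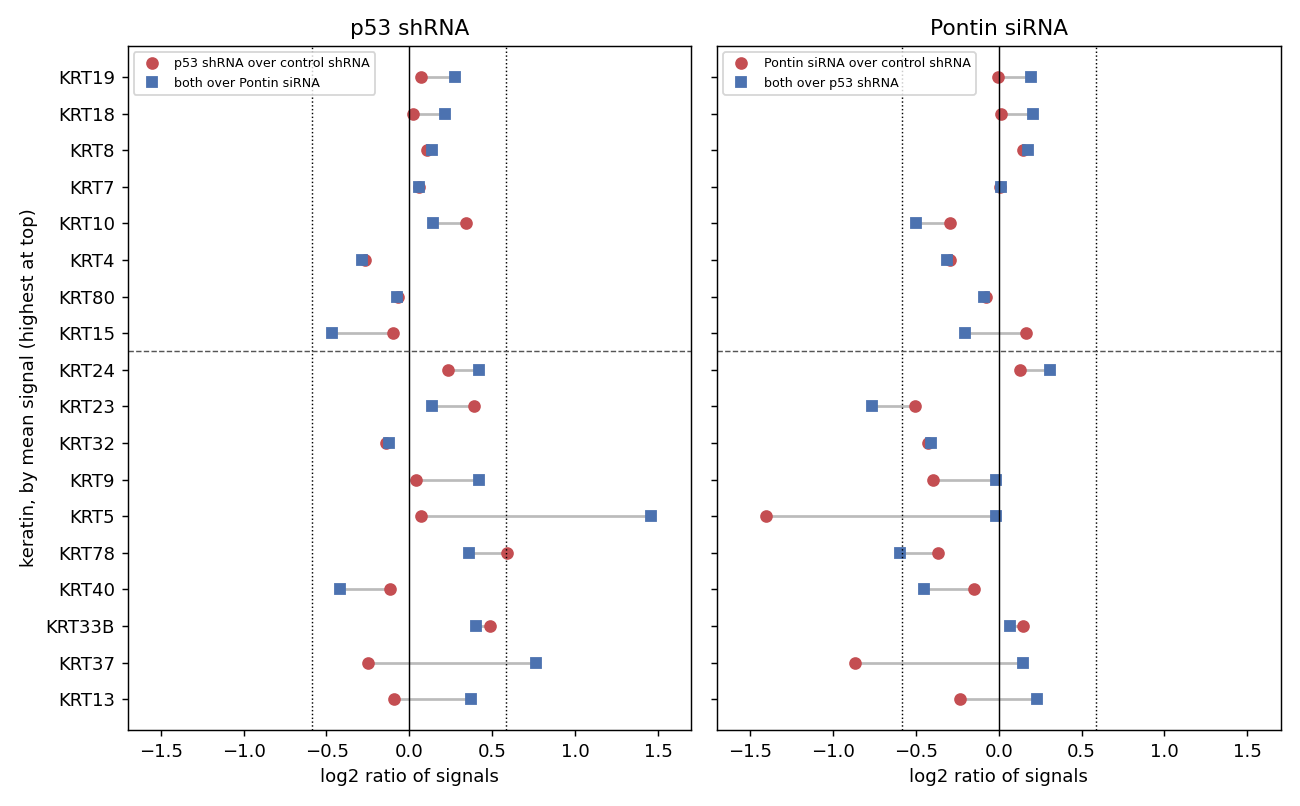
For the 18 keratins kept, ordered by mean signal, the points give the log2 ratio of each pair with p53 shRNA (left) and with Pontin siRNA (right), circles for the pair with control shRNA and squares for the pair with both knockdowns. Dotted lines mark 1.5-fold and the dashed line the expression threshold; above it all points lie between the dotted lines, from -0.50 to 0.34, and below it KRT5 has the widest gap between pairs.

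Among the expressed keratins, KRT4 and KRT80 were below 0 in all 4 pairs, as were 14.4% of bright genes. KRT4 was at least 0.25 below 0 in all 4, a bound set after its values were seen, as were 0.413% of bright genes. Because the bound was set on KRT4 itself, that share cannot show how unusual the gene was. The p53 and Pontin pairs also use the same 4 arrays. The second, dimmer probe set of KRT4 did not reach the bound (-0.05 and -0.03, then -0.13 and -0.12). In cells with both knockdowns over control shRNA, KRT4 was at -0.58 in the signals as deposited, which is 1.49-fold lower and just under the 1.5-fold mark. In that comparison 3.67% of bright genes were at least 1.5-fold lower and 2.17% at least 1.5-fold higher. The ratio of KRT4 with both knockdowns differed from the sum of the single ratios by -0.02.

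The 4 expressed keratins of highest signal (KRT19, KRT18, KRT8 and KRT7) were all highest on the array with both knockdowns, and the other 4 were not, beside 24.2% of bright genes that were. High signals in general were higher on that array: of 625 probe sets with a mean signal of 4000 or more, 69.6% had their highest value there, and their median log2 ratio over control shRNA was 0.15. The keratins had 0.27 (KRT19), 0.23 (KRT18), 0.28 (KRT8) and 0.07 (KRT7) in the same comparison. After quantile normalization these values were 0.06, 0.04, 0.15 and 0.01, and after cyclic loess normalization 0.24, 0.20, 0.27 and 0.06. After median centring none of these 4 keratins was highest there. Both knockdowns over p53 shRNA were then at -0.10 (KRT19), -0.09 (KRT18), -0.12 (KRT8) and -0.28 (KRT7). What part the array had in these differences was not tested. KRT4 was at -0.54 after quantile and -0.56 after cyclic loess normalization, and KRT15 at -0.30 and -0.28. After median centring KRT4 was at -0.28 for p53 shRNA over control shRNA and -0.60 for both knockdowns over p53 shRNA. With that scaling KRT4 was therefore past 1.5-fold lower with both knockdowns over control shRNA.

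Several expressed keratins had more than 1 probe set, and these did not always give the same ratios. KRT10 had 3 probe sets of similar signal. Its brightest had p53 ratios of 0.34 and 0.14, the second -0.02 and 0.15, and the third 0.01 and 0.17. For Pontin siRNA they were -0.29 and -0.50, then -0.34 and -0.17, then -0.18 and -0.03, so all 3 were below 0 in both pairs and the size depended on the probe set. The second probe set of KRT4, with a mean signal of 73.2, had p53 ratios of -0.05 and -0.03 and Pontin ratios of -0.13 and -0.12, the same signs at smaller sizes. The second probe set of KRT19, at 39.2, had ratios of 0.48 and 0.07 for either knockdown. KRT7 had 3 further probe sets at 77.4, 41.4 and 2.82, of which only the dimmest had both pairs of a knockdown at least 1.5-fold on the same side (2.29 and 3.19 with Pontin siRNA). KRT8, KRT18, KRT80 and KRT15 had 1 probe set each. Those of KRT8 and KRT18 are of a type that can hybridize to closely related sequences, and both genes have many processed pseudogenes. All 3 probe sets of KRT10, both of KRT4 and the brightest of KRT7 are also of types that can hybridize to several transcripts.

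**Figure D3:**
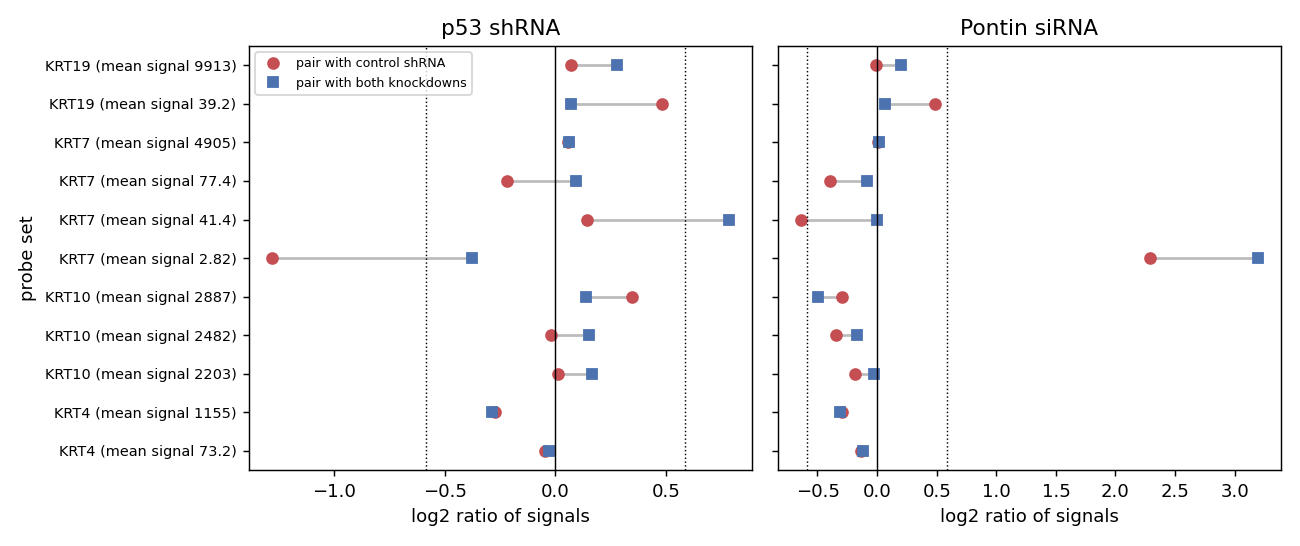
Each row is 1 probe set of KRT19, KRT7, KRT10 or KRT4, named with its mean signal, and the points give its log2 ratio in both pairs of p53 shRNA (left) and Pontin siRNA (right), with dotted lines at 1.5-fold. The 3 KRT10 probe sets all lie below 0 with Pontin siRNA, and the dimmest KRT7 probe set, at a mean signal of 2.82, has the largest ratios.

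The 10 keratins kept but not expressed had mean signals from 15.5 to 67.9. They were KRT24, KRT23, KRT32, KRT9, KRT5, KRT78, KRT40, KRT33B, KRT37 and KRT13. Their pair ratios ran from -0.42 to 1.46 with p53 shRNA and from -1.40 to 0.31 with Pontin siRNA. In this range of signal 5.14% of genes were called with p53 shRNA and 4.47% with Pontin siRNA, and 0 of these 10 keratins were. With p53 shRNA, KRT24, KRT9, KRT5 and KRT33B had both arrays above both without it, beside 20.6% of kept genes that were not bright. With Pontin siRNA, KRT23, KRT32, KRT78 and KRT40 had both arrays below both without it, beside 15.1%.

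KRT23, a type I keratin of simple epithelia, came closest to a call. Its signal was 96.5 with p53 shRNA, 51.7 with Pontin siRNA, 56.8 with both and 73.5 with control shRNA. Both values with Pontin siRNA were below both without it, at ratios of -0.51 and -0.76, of which only the second reached 1.5-fold. With p53 shRNA it was at 0.39 and 0.14.

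KRT24, a type I keratin known from the cornea, had signals of 68.3 with p53 shRNA, 63.4 with Pontin siRNA, 84.7 with both and 58.1 with control shRNA, and was at 0.23 and 0.42 with p53 shRNA. KRT32, a hair cuticle keratin, had 37.3 with p53 shRNA, 30.6 with Pontin siRNA, 28.1 with both and 41.2 with control shRNA, and was at -0.43 and -0.41 with Pontin siRNA. In the pair with control shRNA alone, KRT78 was 1.5-fold apart with p53 shRNA, beside 8.83% of genes kept, and KRT5 and KRT37 with Pontin siRNA, beside 8.21%. KRT5 shows how 1 array can set a ratio. Its signals were 28.0 with p53 shRNA, 10.1 with Pontin siRNA, 27.7 with both and 26.7 with control shRNA. The single low value gave 1.46 in the second p53 pair and -1.40 in the first Pontin pair, with the other pairs at 0.07 and -0.02.

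The 26 keratins below the filter had signals from 0.5 to 19.2 and pair ratios from -3.90 to 3.70. With p53 shRNA, 5 of these 26 were 1.5-fold apart in the same direction in both pairs, while 21.6% of all genes below the filter were (13.4% higher and 8.17% lower). KRT14 (1.46 and 3.09), KRT1 (1.32 and 0.86), KRT3 (1.11 and 0.68) and KRT36 (0.78 and 1.42) were on the higher side and KRT16 (-3.90 and -2.00) on the lower. With Pontin siRNA it was also 5 of 26, beside 21.6% (13.8% higher and 7.72% lower). KRT14 (0.66 and 2.30), KRT1 (1.25 and 0.79), KRT71 (0.79 and 2.37) and KRT31 (0.58 and 1.36) were on the higher side, and KRT75 (-0.69 and -0.67) on the lower.

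Opposite signs at 1.5-fold were at least as frequent among these dim keratins. With p53 shRNA they were seen for 7 of 26, KRT2, KRT74, KRT77, KRT35, KRT72, KRT33A and KRT76, where 20.9% of genes below the filter did so. With Pontin siRNA they were seen for 7 of 26, KRT2, KRT74, KRT77, KRT35, KRT16, KRT12 and KRT84, beside 20.4%. Over all genes below the filter, the shares with the same and with opposite signs were thus alike. No change is read from the dim keratins. KRT14, for example, had signals of 3.3 with p53 shRNA, 1.9 with Pontin siRNA, 16.2 with both and 1.2 with control shRNA. KRT16 had 0.9 with p53 shRNA, 8.4 with Pontin siRNA, 2.1 with both and 13.4 with control shRNA.

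**Figure D4:**
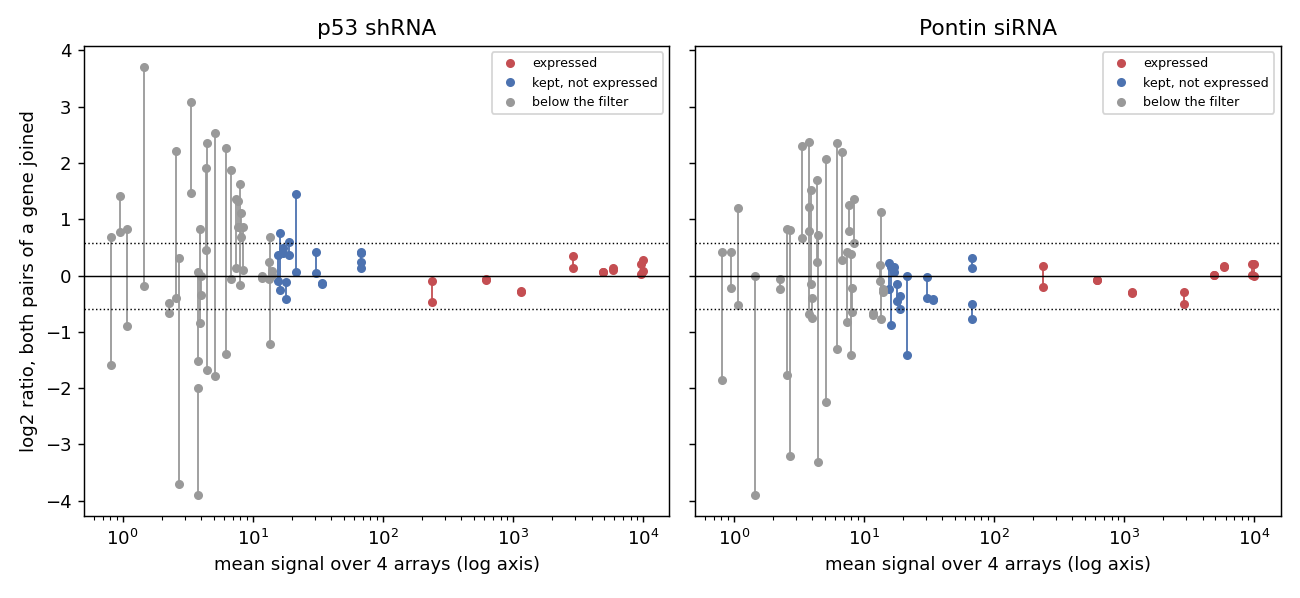
Each of the 44 keratins is drawn at its mean signal (log axis) with the log2 ratios of both pairs joined by a line, for p53 shRNA (left) and Pontin siRNA (right); dotted lines mark 1.5-fold. The ratios spread from -3.90 to 3.70 below a mean signal of 15.3 and stay within -0.50 to 0.34 for the expressed keratins.

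Genes that anchor or accompany keratin filaments were described from lists. Of 16 other intermediate filament genes, 10 were kept and 0 were called with either knockdown. VIM, the mesenchymal filament gene vimentin, had signals from 3.9 to 18.5, and LMNB2, which encodes a nuclear lamin, was at 0.33 and 0.39 with Pontin siRNA. Of 16 kept genes of desmosomes, hemidesmosomes and plakins, 0 were called with either knockdown, with a median mean ratio of 0.06 with p53 shRNA and 0.13 with Pontin siRNA, beside -0.00 and 0.01 over all genes kept. DSC2, a desmosomal cadherin gene, had p53 ratios of 0.41 and 0.17 and Pontin ratios of -0.14 and -0.38. DST, a plakin gene of hemidesmosomes, had p53 ratios of -0.19 and -0.32 and Pontin ratios of -0.21 and -0.34. EPPK1, which encodes the keratin-binding protein epiplakin, was at 0.20 and 0.37 with Pontin siRNA.

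Of 15 kept genes of keratin-associated, keratin-modifying and cornified envelope proteins, IVL alone was called, lower with Pontin siRNA, as were 1.25% of all genes kept. This list was chosen with earlier results of these data known, so that share cannot show how unusual the call was. IVL encodes involucrin, an envelope precursor of stratified epithelia. Its signal was 329 with p53 shRNA, 133 with Pontin siRNA, 171 with both and 219 with control shRNA, with ratios of -0.72 and -0.95 with Pontin siRNA and 0.59 and 0.36 with p53 shRNA. IVL was the only 1 of 6 keratinocyte markers at 110 or more. The summed signal of these markers was 386 with p53 shRNA, 167 with Pontin siRNA, 234 with both and 268 with control shRNA, most of it from IVL. The other 5, which include KRT5 and KRT14, summed to 56.4 with p53 shRNA, 33.6 with Pontin siRNA, 63.2 with both and 49.1 with control shRNA. KRT10, KRT4, KRT80, KRT23, KRT32, KRT78 and KRT40 also had both signals with Pontin siRNA below both without it, and KRT8 had both above. Of the keratinocyte markers, KRT14 was on the higher side (0.66 and 2.30), at a mean signal of 3.32. What the keratinocyte markers have to do with the lower keratins was not tested. The small heat shock protein gene HSPB1 was at 0.35 and 0.49 with Pontin siRNA and -0.29 and -0.15 with p53 shRNA.

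Of 21 kept epithelial transcription factor genes linked to keratin genes, GATA3 and ELF5 were called lower with p53 shRNA, as were 0.862% of all genes kept. With Pontin siRNA, 0 of the 21 were called. The list was chosen with earlier results of these data known, so the share cannot show how unusual its calls were. ELF5, a factor of luminal progenitor and alveolar cells, had signals of 55.4 with p53 shRNA, 117 with Pontin siRNA, 70.2 with both and 138 with control shRNA, at -1.32 and -0.74. GATA3, a luminal factor, was at -0.96 and -0.67. GATA3 was bright and ELF5 was not. In either direction 0.633% of bright genes and 5.14% of kept genes that were not bright were called with p53 shRNA. Of the 4 myoepithelial markers, all below 110, ACTA2 (2.04-fold and 2.01-fold) and OXTR (1.58-fold and 1.51-fold) were called higher with p53 shRNA, as were 1.38% of genes kept. Both were dim, with mean signals of 24.4 and 27.1. MYH11 was not called (0.22 and 0.36), and CNN1, at a mean signal of 2.95, had opposite signs (3.59 and -2.51). The 4 summed to 109.6 with p53 shRNA, 59.0 with Pontin siRNA, 87.7 with both and 58.3 with control shRNA, and their part in these ratios was not tested. TFAP2A, which encodes an AP-2 factor of surface epithelium, was at 0.32 and 0.25 with p53 shRNA, and its relative TFAP2B at -0.47 and -0.54. SOX9, a progenitor factor of several epithelia, had p53 ratios of 0.37 and 0.43 and Pontin ratios of 0.25 and 0.31.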

How the data were processed

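Total RNA (200 ng per array) from 4 SK-BR-3 cultures was hybridized to Affymetrix arrays, per the labels' protocols. The authors deposited linear MAS5 signal intensity values, per the submitters' processing notes, which give no version. Each deposited array had a mean of 150.0 without its lowest and highest 2%. No detection calls were used.

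Gene symbols came from the platform annotation and were updated by Entrez identifier. Of 54675 probe sets, 41091 had 1 symbol outside the 62 control probe sets (41037 matched the gene table), 1801 had several and 11777 had none listed. Signals were taken to log2 without further normalization. The 14 signals of 0 were set to 0.1. The number of arrays limits the precision. Replicates being absent, p-values appear only for an additive limma fit (limma 3.58.1), which takes the pairs as replicates with 1 residual degree of freedom. Functions were tested on simulated data.

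Named genes were all expressed keratins, the 3 next below the threshold, keratins called or opposite in both pairs, RUVBL1, called list members and up to 2 bright examples per direction; VIM, partner keratins and the other kept keratins were named after their values were seen. Members and lists were chosen with earlier results of these data known. The target of the p53 shRNA is not reported here.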

Additional observations from a re-analysis of the deposited data

Results flagged for a closer look

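The pairs of Pontin siRNA pointed opposite ways for KRT15, at 0.16 without p53 shRNA and -0.21 with it, and for KRT19, at -0.01 and 0.20. The difference between the pairs was not tested, since each rests on 1 array per group. It was -0.37 for KRT15 and 0.20 for KRT19. The pairs of KRT19 still had opposite signs after quantile normalization (-0.01 and 0.03) and with a pseudocount of 16 (-0.01 and 0.20). They had the same sign after cyclic loess normalization (0.02 and 0.18), after median centring (-0.06 and -0.10) and with the mean over probe sets (0.24 and 0.13). Those of KRT15, which has 1 probe set, had opposite signs under quantile, cyclic loess and median normalization.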

How the results depend on the processing

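No keratin was called with either knockdown under quantile, cyclic loess or median normalization, with a pseudocount of 16, with the mean over probe sets or without probe set types that can cross-hybridize. Bright genes alone and a 2-fold threshold could add no call by construction. Without a filter on signal, 5 keratins were called with p53 shRNA and 5 with Pontin siRNA, all of them dim. Without the array with both knockdowns, an alternative chosen after seeing the data that leaves 1 pair, 1 kept keratin (KRT78) was 1.5-fold apart with p53 shRNA and 2 (KRT5 and KRT37) with Pontin siRNA, beside 8.83% and 8.21% of genes kept. The additive limma fit called 0 keratins and 0 of all genes kept, RUVBL1 included, so it says nothing about stability; its lowest adjusted p over keratins was 0.406 with p53 shRNA and 0.337 with Pontin siRNA. The median ratio of expressed keratins with p53 shRNA was 0.0087 after quantile normalization and -0.0715 without cross-hybridizing types, which left 3 expressed keratins. Median centring moved the median of bright genes to -0.14 with p53 shRNA and -0.18 with Pontin siRNA, and the expressed keratins then had -0.0398 and -0.1784. Of 88 ratios of single keratins recomputed under a rescaling or a pseudocount, 54 moved by no more than the SD of the gene's pairs and 34 by more, and 0 gained a call. The mean Pontin ratio of KRT4 stayed between -0.48 and -0.21, that of KRT10 between -0.57 and -0.25 and that of KRT23 between -0.81 and -0.52, while that of KRT7 ran from -0.24 to 0.55 with the probe set used. No fit with a replicate block was made, because the labels give no replicate numbers and the matched pairs are arms of the design.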
